A study of Danio rerio with 8 samples.

Results

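The miR-430 family was examined in small RNA libraries of whole zebrafish larvae (Danio rerio, AB wildtype) at 7 dpf, long after the early embryonic stages for which this family is best known. All genes of the deposited table whose symbol starts with dre-mir-430 were taken, which gave 55 of the 32520 genes and of the 434 miRNA genes. They carry the letters a (17 genes), b (20 genes) and c (18 genes). The 8 libraries compared were each made from a pool of 50 larvae. The 4 S- libraries came from crossings of undisturbed control males, and the 4 S+ libraries from crossings of males exposed to chronic stress for 21 days. The males were 12 months old, the mothers were undisturbed control females in both groups, and each replicate was the F1 progeny of a separate crossing. The larvae themselves were never stressed, so the comparison asks whether the stress of the father leaves a difference in the small RNAs of the progeny.

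In zebrafish, miR-430 is among the first transcripts made when the zygotic genome is switched on. It is encoded by a dense cluster of near-identical hairpins, and the lettered subgroups share the seed, the short stretch at the 5′ end of a miRNA that pairs with targets, and differ mainly downstream of it. In the early embryo it speeds the deadenylation and clearance of maternal mRNAs and tempers Nodal signalling by acting on both squint (ndr1) and lefty. Its level falls as the embryo matures, and a larva at 7 dpf is far beyond that stage.

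At 7 dpf the family was still measurable but scarce in the counts as listed. How the mapping treated reads that fit many copies was not tested. Summed over all 55 genes it held 0.0284% ± 0.00158 (SD, n = 4) of the miRNA counts in S- larvae and 0.0348% ± 0.00502 (SD, n = 4) in S+ larvae. Almost all of it was miR-430a, a minor part was miR-430b, and miR-430c was listed at 0 in every library. The sums of miR-430a and miR-430b were higher on average in S+ larvae, by 1.20-fold and 1.65-fold, and neither passed the test between the groups. Between single miR-430b genes the counts moved far more than in their sum, with the reads of the subgroup listed under different copies in different libraries.

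The libraries held 3492945 to 4943297 counts in total, of which 96.2% to 97.9% fell on miRNA genes. Levels are given as CPM, counts per 1000000 of the library total after scaling with TMM factors, which correct for differences in the makeup of libraries. A small RNA read covers a mature miRNA in full, so levels were not divided by gene length. The larvae held the tissue miRNAs that a whole animal should have. The 6 miR-124 genes of neurons summed to 1691 to 2406 CPM per library, the 6 genes of the muscle miRNAs miR-1, miR-133 and miR-206 to 36764 to 44235 CPM, and miR-122 of the liver to 1560 to 2101 CPM. Of 6 germ cell mRNAs (ddx4, dnd1, piwil1, piwil2, nanos3 and dazl), 5 had any count, and at most 3 counts in a library. Fragments of mRNAs are scarce in small RNA libraries, so these counts cannot be set against the miRNA levels and do not measure germ cells. In pools of whole larvae, fewer cells that hold a miRNA and less of it per cell cannot be told apart.

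The 55 genes carried only 12 different symbols in the table, while the Ensembl identifiers pair with 51 different current names. For example, all 18 miR-430c genes are listed as dre-mir-430c-1 and the 8 genes listed as dre-mir-430a-2 are now named a-2 (on 2 genes), a-3, a-5, a-6, a-7, a-8 and a-10. Of the 55 genes, 29 had at least 1 count and 26 were at 0 in every library. The 29 genes showed only 6 different series of counts. The 8 genes listed as dre-mir-430a-2 had identical counts in all 8 libraries, and so had the 9 genes listed as dre-mir-430b-10, the 3 listed as dre-mir-430b-6 and 7 others of subgroup b. Outside the family, 6 of the 290 miRNA genes with counts had a row identical to another, none of them with more than 16 counts in total. The authors' counting tool, RSEM, divides a read that fits several genes among them, so identical rows are 1 measurement listed several times and their sum stands for the reads of the set.

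Subgroup a made up 89.96% to 94.6% of the family in S- libraries and 88.8% to 93.1% in S+ libraries. Each of the 8 dre-mir-430a-2 genes had 132, 122, 122 and 113 counts in S- replicates 1 to 4. In S+ replicates 1 to 4 each had 145, 164, 208 and 135 counts. These were 32.1 ± 4.08 CPM (SD, n = 4) in S- and 38.5 ± 1.90 CPM (SD, n = 4) in S+, and the groups overlapped. Dre-mir-430a-1 (ENSDARG00000083624) is the 1 copy that RefSeq places on another chromosome than the rest. It had 2, 1, 1 and 4 counts in S- and 2, 5, 4 and 5 counts in S+. The remaining 8 genes of subgroup a (current names a-4 and a-11 to a-17) were at 0 throughout.

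Summed over its 17 genes, miR-430a reached 289, 215, 248 and 277 CPM in S- replicates 1 to 4. In S+ replicates 1 to 4 it reached 286, 315, 319 and 315 CPM. In CPM the S+ libraries 2 to 4 lay above every S- library, while S+ replicate 1 lay just below S- replicate 1. As a share of miRNA counts, without TMM factors, S+ replicate 2 (0.0272%) lay below S- replicates 1 (0.0281%) and 3 (0.0278%). In CPM the spread was wider among S- libraries, with a coefficient of variation of 12.8% against 5.01% in S+. For the share of miRNA counts the order of the spreads was reversed. Among the S+ libraries that share had an SD of 0.00479% around a mean of 0.0318%. Among the S- libraries its SD was 0.00205% around a mean of 0.0265%. Which group varied more therefore depended on the scaling.

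Subgroup b held 5.37% to 10.04% of the family in S- libraries and 6.95% to 11.2% in S+ libraries, ranges that overlapped. Its 20 genes summed to 60, 109, 58 and 60 counts in S- replicates 1 to 4. In S+ replicates 1 to 4 they summed to 110, 166, 160 and 81 counts. On the CPM scale these were 16.4, 24.0, 14.7 and 18.3 in S-. In S+ they were 27.1, 39.7, 30.6 and 23.5. S+ replicate 4 lay just under S- replicate 2, and the other 3 S+ libraries lay above all S- libraries. The spread within the groups, 22.1% in S- and 23.1% in S+ as a coefficient of variation, was close in both groups.

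**Figure D1:**
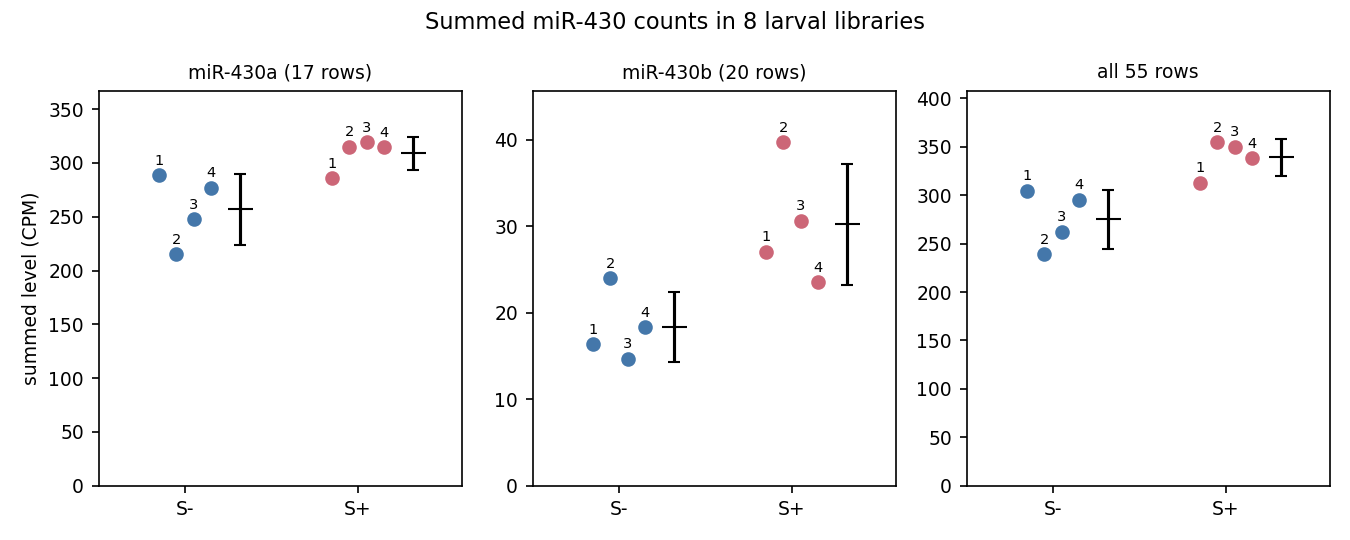
Summed level of miR-430a, of miR-430b and of all 55 genes (vertical axes, CPM, each from 0) in the S- and S+ libraries. Points are libraries with their replicate number, and the black marks give the mean and SD of 4. For miR-430a, S+ replicate 1 (286 CPM) lies below S- replicate 1 (289 CPM), and for miR-430b, S+ replicate 4 (23.5 CPM) lies below S- replicate 2 (24.0 CPM).

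Subgroup c was not detected. All 18 genes had 0 counts in all 8 libraries, which by counting error alone allows 3 counts per library, or up to 0.915 CPM. The deposited estimates are whole numbers, and RSEM gives fractions. If they were rounded, each gene at 0 could hide an estimate of up to 0.5, or 9 counts over the 18 genes. By rounding alone the limit is then up to 2.75 CPM in a library, against 14.7 CPM and 58 counts in the library with the lowest miR-430b sum. These limits cover counting error and rounding each on its own, not both together. How the mapping treated reads that fit many copies was not tested. In the early embryo the 3 subgroups are transcribed from the same cluster. The RefSeq annotation belongs to another assembly (GRCz12tu) than the counts. It was used only for names, hairpin lengths and the chromosome of dre-mir-430a-1. It gives 73 bases for the miR-430c hairpins and 82 bases for those of the listed miR-430a genes. It also names 3 genes of a subgroup i, which no symbol in the table carries.

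S+ and S- larvae were compared by limma with voom weights over the genes that passed a filter on low counts. Calls needed a Benjamini-Hochberg adjusted p under 0.05 together with a log2 fold change beyond 0.58 in either direction. Of 651 genes tested, 2 were called (0.307%), and both lay outside the family. Only the 8 dre-mir-430a-2 genes passed the filter, while 21 genes with counts did not and entered no gene-wise test. Over the same 651 genes, edgeR's quasi-likelihood test called 2 and DESeq2 called 30. Of the 8 dre-mir-430a-2 genes, 0 were called by limma, edgeR or DESeq2, and 0 had an unadjusted limma p below 0.05. Being identical, they gave 1 result, 0.28 on the log2 scale (SE 0.186, adjusted p = 0.545 by limma). Without S- replicate 2 it was 0.18.

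With the rows of each subgroup replaced by their sum, 645 genes and sums were tested. None of the sums was called by limma, edgeR or DESeq2. Limma called 0.31% of all features in this fit. In the fit of single genes edgeR called 2 of 651 and DESeq2 30. Of the 2 sums, 1 had an unadjusted limma p below 0.05, as had 12.4% of single genes. The miR-430a sum was higher by 0.28 on the log2 scale (SE 0.141, adjusted p = 0.433 by limma), and by 0.16 without S- replicate 2, its lowest S- library. Its 95% interval ran from -0.03 to 0.59, that is from 0.977-fold to 1.51-fold. The miR-430b sum was higher by 0.72 (SE 0.258, adjusted p = 0.249 by limma, unadjusted p = 0.0191). Its 95% interval ran from 0.14 to 1.29, or from 1.11-fold to 2.45-fold. By exact permutation of the libraries (two-sided, log2 CPM), both sums had p = 0.0571, where the smallest p that 4 libraries against 4 allow is 0.0286. Rounding limits the miR-430b value further. If the estimates were rounded to the nearest whole number, each of the 20 genes is uncertain by 0.5 counts. The ratio of the group means, 1.65, could then lie anywhere from 1.38 to 2.06. Whether they were rounded or cut off to whole numbers is not stated, and the second case was not examined. The same bound for miR-430a is narrow, from 1.19 to 1.22 around 1.20.

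The sum of all 55 genes is described without a test, since it is a score over the chosen members. It was 305, 239, 262 and 295 CPM in S- replicates 1 to 4. In S+ replicates 1 to 4 it was 313, 355, 350.1 and 338 CPM. The S+ libraries lay above the S- libraries with S- replicate 1 (305 CPM) and S+ replicate 1 (313 CPM) nearest to each other, and 5.96% of the miRNA genes with counts were likewise higher in S+ without overlap. The log2 fold change of the sum was 0.31 (SE 0.135). As a share of miRNA counts, without TMM factors, the order of the S+ libraries was different. S+ replicate 3 was highest, at 0.0420% (95% Clopper-Pearson interval 0.0401% to 0.0440%), and S+ replicate 2 was lowest, at 0.0306% (0.0291% to 0.0322%). The highest S- library was replicate 1, at 0.0297% (0.0280% to 0.0315%), an interval that overlapped that of S+ replicate 2. These intervals cover counting error only.

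The genes of subgroup b behaved very differently one by one. Dre-mir-430b-4 (ENSDARG00000115871) had 4, 6, 3 and 4 counts in S- replicates 1 to 4. In S+ replicates 1 to 4 it had 7, 100, 54 and 60 counts. The 3 genes listed as dre-mir-430b-6 each had 2, 0, 0 and 2 counts in S- and 4, 22, 11 and 7 counts in S+. For these 4 genes every S+ library lay above every S- library in CPM. Among all miRNA genes with at least 1 count, 5.96% were higher in S+ without overlap.

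The other 16 genes of subgroup b went the opposite way in part of the S+ libraries. Each of the 9 genes listed as dre-mir-430b-10 had 4, 6, 3 and 4 counts in S-, the same as dre-mir-430b-4, and 7, 0, 5 and 0 counts in S+. Each of the 7 genes listed as dre-mir-430b-1, dre-mir-430b-9 or dre-mir-430b-18 had 2, 7, 4 and 2 counts in S- and 4, 0, 4 and 0 counts in S+. In 5 of the 8 libraries, among them S+ replicate 1, the count of dre-mir-430b-4 equalled that of each dre-mir-430b-10 gene. In S+ replicates 2 and 4 the 16 genes had 0 counts, and dre-mir-430b-4 and dre-mir-430b-6 together held 100% of the subgroup. In S+ replicate 3 they held 54.4%, and in the other 5 libraries from 5.17% to 17.3%. The whole subgroup meanwhile differed by 1.65-fold between the groups.

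**Figure D2:**
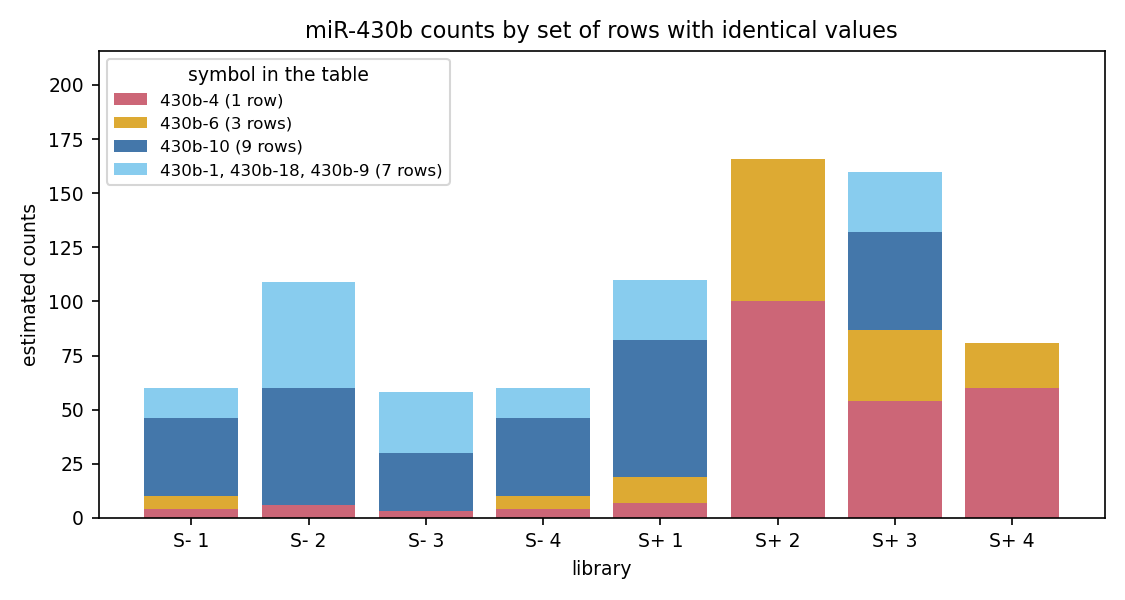
Estimated counts of the 20 miR-430b genes (vertical axis) in each library, stacked by set of genes with identical counts, the colours giving the symbol in the table and the number of genes in the set. In S+ replicates 2 and 4 all counts fall on dre-mir-430b-4 and dre-mir-430b-6, which hold 5.17% to 17.3% of the subgroup in the S- libraries and S+ replicate 1.

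How the shared reads were divided among the copies was not tested, and single miR-430b genes were not read as a result between the groups. None of them passed the filter with all 8 libraries. In the fit without a filter, limma called dre-mir-430b-4 and the 3 dre-mir-430b-6 genes, where 0.431% of 18338 genes were called. The 3 dre-mir-430b-6 genes have identical counts, so their calls are 1 result. The log2 fold changes were 2.89 for dre-mir-430b-4 (limma adjusted p = 0.000301) and 2.80 for the dre-mir-430b-6 genes (limma adjusted p = 0.0152). With the filter, dre-mir-430b-4 entered a fit only when S+ replicate 1 or any S- library was left out, and it was not called. It passed through its counts in S+ replicates 2 to 4, where it is high, so these fits are no test of a difference. Without the row dre-mir-430b-4, an alternative chosen after the data were seen, the sum of the subgroup had a log2 fold change of -0.17 (limma adjusted p = 0.882). A lower value was set in advance by leaving out a row that is high in S+.

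Against the rest of the small RNA profile, the family was of modest abundance in the counts as listed. How the mapping treated reads that fit many copies was not tested, and this level and rank depend on it. Families were formed by the number in symbols that start with dre-, which took in 307 of the 434 miRNA genes and gave 128 families, 121 with at least 1 count. The other 127 miRNA genes, with another form of symbol or none, were in no family. Among these 128 the miR-430 family stood at rank 81, with a mean of 307 CPM over the 8 libraries. Its sum of 55 genes was far below the level of the most abundant single genes. The miRNA gene with the highest mean, ENSDARG00000083126, which has no symbol in the table, had 78528 CPM. The miR-430a sum, 283 CPM, was exceeded by the mean of 159 of the 434 miRNA genes, and a single dre-mir-430a-2 gene, 35.3 CPM, by that of 235.

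**Figure D3:**
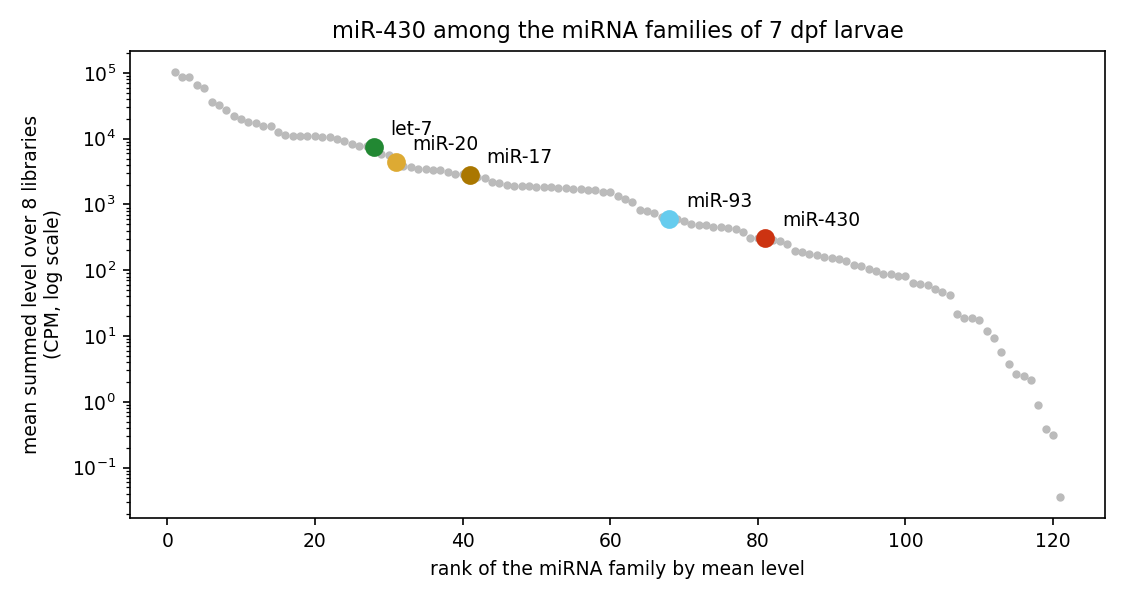
Mean summed level of each miRNA family, formed from dre- symbols, over the 8 libraries (vertical axis, CPM, log scale) against its rank. The miR-430 family (red) lies at rank 81 with 307 CPM, below miR-93 (600 CPM), miR-17 (2778 CPM), miR-20 (4368 CPM) and let-7 (7358 CPM).

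Another group of miRNAs carries a seed that overlaps that of miR-430. These are miR-17, miR-20 and miR-93, which are linked to proliferating cells, and all 5 of their dre- genes were tested. The genes of miR-17 summed to 2455 ± 423 CPM (SD, n = 4) in S- and 3101 ± 378 CPM (SD, n = 4) in S+, and those of miR-20 to 4193 ± 726 CPM and 4542 ± 677 CPM. Of the 5 genes, 0 were called in either direction, where 0.307% of all genes tested were. All 5 log2 fold changes were positive, with a median of 0.27, where 303 of all 651 genes and 130 of the 271 miRNA genes tested were positive, with a median of -0.02 over all genes. The value farthest from 0 was that of dre-mir-17a-1, 293 ± 49.6 CPM (SD, n = 4) in S- and 521 ± 105 CPM in S+, or 0.83 (SE 0.184, limma adjusted p = 0.116, unadjusted p = 0.00120), named after its value was seen. Dre-mir-20a, the most abundant, had 3561 ± 655 CPM (SD, n = 4) in S- and 3705 ± 564 CPM in S+, 0.07 higher on the log2 scale (limma adjusted p = 0.878). Dre-mir-17a-2 had 2162 ± 429 CPM (SD, n = 4) in S- and 2580 ± 378 CPM in S+, 0.27 higher on the log2 scale (limma adjusted p = 0.545). Dre-mir-17a-1 and dre-mir-17a-2 are numbered copies of miR-17a, and how reads that fit both were divided was not tested. Their values are therefore not shown to be separate measurements.

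The let-7 family, which marks later developmental stages in animals, was compared as the opposite pole. Its 18 genes with a dre- symbol summed to 6948 ± 208 CPM (SD, n = 4) in S- and 7769 ± 1216 CPM (SD, n = 4) in S+, on the scale on which miR-430 had 275 ± 30.4 CPM and 339 ± 18.8 CPM. Of the 18 genes, 0 were called (0.307% of all genes tested) and 14 had a positive log2 fold change (303 of 651 of all genes tested, 130 of 271 of the miRNA genes), with a median of 0.12. Dre-let-7a-2 had a log2 fold change of 0.12 (limma adjusted p = 0.743) and dre-let-7a-1 one of 0.21 (limma adjusted p = 0.552). No let-7 gene had a row identical to that of another gene.

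**Figure D4:**
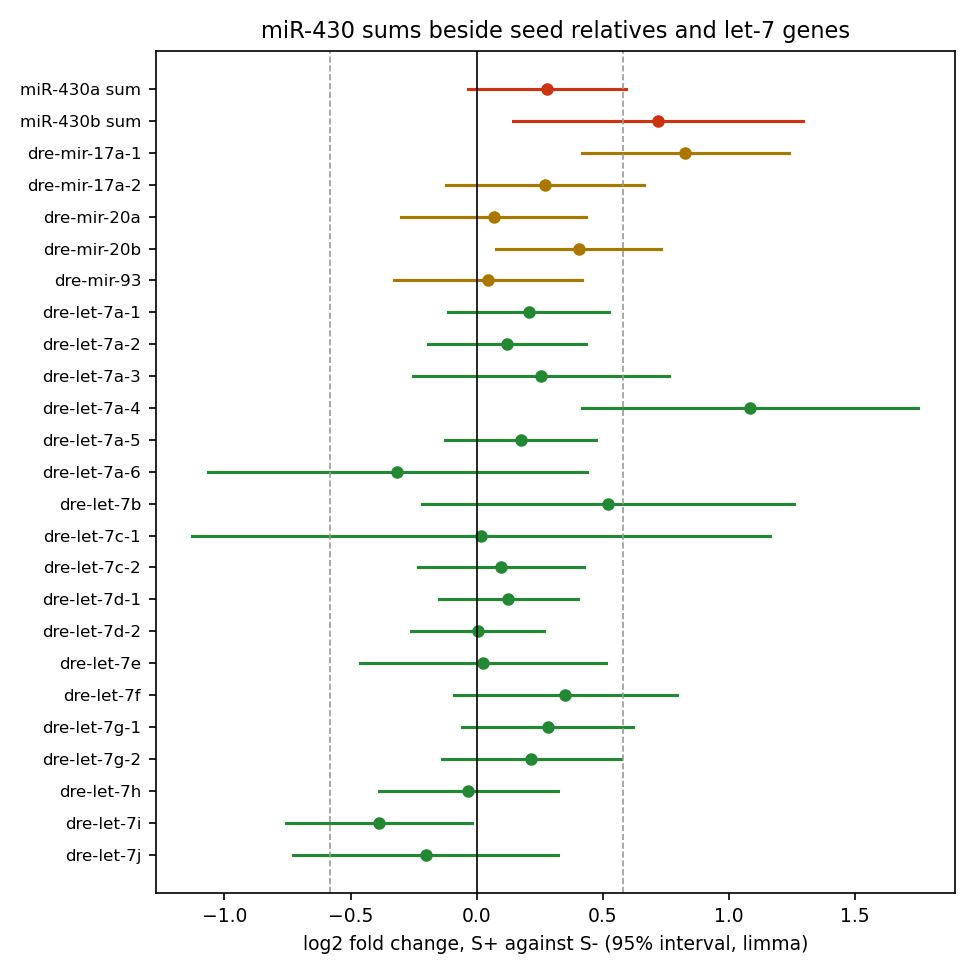
Log2 fold change of S+ against S- (horizontal axis) with its 95% interval from limma for the miR-430a and miR-430b sums (red), the 5 genes of miR-17a, miR-20 and miR-93 (brown) and the 18 let-7 genes (green). Dashed lines mark 0.58 in either direction, and 0 of the genes and sums shown were called, miR-430a lying at 0.28 and miR-430b at 0.72.

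The genes that act before and after miR-430 left few reads in these small RNA libraries. Of its activators at the onset of zygotic transcription, nanog and pou5f3 had 0 counts in every library and sox19b had 1 count in all. Of the processing genes, 8 were in the table and 7 had counts. Dgcr8, the partner of Drosha in cutting hairpins from their precursors, was the only one of the pathway genes that could be tested, with 4 to 17 counts per library and a log2 fold change of 0.40 (limma adjusted p = 0.743). Dicer1, which cuts the hairpin to the mature miRNA, had 15 counts in all. The 7 genes of the silencing machinery all had counts, at most 16 in a library. The highest were cnot1, the scaffold of the deadenylase complex, with 58 counts, and tnrc6a, which links Argonaute to it, with 43.

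Of the 10 genes known as miR-430 targets in zebrafish embryos, 6 had any count and none more than 3 in a library. Cxcl12a, a chemokine that guides migrating cells, had 5 counts in all and dazl, a germ cell RNA-binding protein, had 4. Both lefty genes (lft1 and lft2) and squint (ndr1) had 0. A change of these mRNAs was therefore not detectable in these small RNA libraries.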

How the data were processed

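Small RNA of 8 pools of larvae was sequenced. Reads were trimmed by the authors (Trim Galore 0.6.6), mapped to GRCz11 (STAR 2.7.8a) and assigned to Ensembl genes (RSEM 1.3.0). They deposited these estimated counts without normalization, as whole numbers, so rounding here changed nothing. Their methods name a stranded mRNA library kit under a small RNA heading, which is left as it stands. No deduplication is described, so intervals cover counting error only. All 8 value columns matched a sample by its label. Counts were compared with limma 3.58.1 (voom) in R 4.3.3, with TMM factors and filterByExpr (minimum count 10) from edgeR 4.0.16. P-values were adjusted over all features of each fit. Of the 271 miRNA genes tested, 8 belong to the family. CPM is the count per 1000000 of the library total times its TMM factor. Sums over subgroups were fitted in place of their rows, and compared with two-sided exact permutation tests (scipy 1.17.1). The fit was tested on simulated data, where it called 48.9% of the tested genes changed 2-fold and 83.1% of those changed 4-fold. Smaller changes were not simulated. All 55 identifiers matched a current name and a RefSeq symbol.

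Named are the family genes that passed the filter, the row with the highest count of each subgroup otherwise, all subgroup sums, the 2 most abundant genes of each other list and the most abundant miRNA gene. Other genes of the family are named where their counts differ, which was chosen after their values were seen. The members and lists were chosen with earlier results of these data known. The alternatives were DESeq2 1.42.0 and the quasi-likelihood test of edgeR, other normalizations and filters, miRNA genes only, the replicate block and each library left out.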

Additional observations from a re-analysis of the deposited data

Results flagged for a closer look

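Among 46 groups of 4 libraries examined, 5 had a library set apart from the other 3 by Dixon's test at the 95% level, and chance gives about 5%. MiR-430a was at 286 CPM in S+ replicate 1, against 315 to 319 CPM in the other S+ libraries. A single dre-mir-430a-2 gene, which holds the same reads, was at 35.7 CPM there against 39.2 to 39.8 CPM. The other flags rest on at most 3 counts, with 0 in the other libraries of the group, which Dixon's test flags whatever the count. They are sox19b in S- replicate 4 (0.305 CPM), dazl in S- replicate 2 (0.660 CPM) and dazl in S+ replicate 2 (0.239 CPM). The number of flags can therefore not be read against the 5%.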

How the results depend on the processing

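The sums of miR-430a and miR-430b stayed higher in S+ and uncalled under all 8 other choices of processing, with log2 fold changes from 0.21 to 0.32 and from 0.64 to 0.77, and adjusted p from 0.108 to 0.754 and from 0.0886 to 0.606. With each library left out they ran from 0.16 (without S- replicate 2) to 0.33 and from 0.57 to 0.83. The dre-mir-430a-2 genes stayed between 0.21 and 0.31, and between 0.18 and 0.34 with a library left out. The sum of the family stayed between 0.21 and 0.36. Its share of counts moved by less than 1 SD with all counts as the denominator. The number of family genes called was 0 throughout, except without a filter, where it was 4, of which 3 have identical counts. Over all genes, 0 were called with DESeq2 size factors and without S- replicate 1, S- replicate 2, S+ replicate 1 or S+ replicate 2. In those fits 0 family calls are no sign of stability. DESeq2 called 30 of 651 genes, and the fit without a filter 79 of 18338. Without dre-mir-430b-4, a row picked after the data were seen, the miR-430b value reversed to -0.17. That row holds 33.8% to 74.1% of the subgroup in S+ replicates 2 to 4, so a lower value was set in advance.

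With the replicate block, 0 family genes were called with limma or edgeR. The log2 fold changes were 0.27 for dre-mir-430a-2, 0.28 for miR-430a, 0.73 for miR-430b and 0.31 for the family. Over all genes the block raised the limma calls from 2 to 9. Libraries that share a number were made from separate crossings, and after subtracting each group mean the 4 pairs correlated across genes with 0.156, -0.159, 0.248 and 0.029, and 3 of 8 libraries correlated best with their own number. No value of miR-430c could be fitted. The miR-430b sum rests on 58 to 166 counts per library. Counting error alone would give it a coefficient of variation of 12.2% in S- and 9.18% in S+. The observed values were larger, 22.1% in S- and 23.1% in S+.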
